A study of Homo sapiens with 10 samples.

Results

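Many human genes can end their mRNAs at more than 1 place, and the genes described here are the protein-coding genes in which separate 3′ ends were measured in 22RV1, a human prostate carcinoma cell line that grows without androgen. They were chosen by their reads: a member has 2 or more 3′ UTR intervals that do not overlap each other, each with 200 or more sequencing reads summed over the 10 libraries. This rule gave 1227 members among 15980 protein-coding genes with reads, and 21170 genes of any type had reads. For each member, the qualifying interval nearest to the gene's start was called the upstream-most end, and its reads were given as a percent of the reads on all qualifying intervals of the gene. Ends that lay just inside the limit included the second interval of AP1S3, ETFRF1, NCAPD3 and NFRKB with 200 reads each, and just outside it lay ACTR3, PDE4D and SHLD1 with 198 and CARF and EDF1 with 197.

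The study asked how inhibitors of CDK12 and of the splicing kinase SRPK1 act on RNA synthesis. Control cells had no treatment, and no vehicle is named for them. Other cells received for 4 h either THZ531, an inhibitor of CDK12, at 100 nM by the study's methods (the text deposited with the data gives 150 nM), or SRPIN340, an inhibitor of SRPK1, at 20 μM, or Endovion, also called SCO-101 and described as an SRPK1 inhibitor, at 50 μM, or THZ531 and Endovion together. Each of the 5 groups had 2 libraries, for which nothing states separate cultures, so the p-values measure the spread between these libraries, which may be technical. In all groups 4-thiouridine was present for the last 10 min, and a read with a T>C conversion marks RNA made in that time (nascent RNA), while all reads together stand for total RNA. The 10 libraries held 19315358 to 30047630 reads and 1011593 to 1576069 T>C reads on the intervals kept. All 10 markers of prostate epithelium on the list were present: KRT18 ranged from 353.8 to 484.4 CPM (counts scaled to a fixed library total) and KRT8 from 89.4 to 134.5. Of the 11 markers of other cell types, 5 had no interval with reads, and the highest, VIM, reached 10.3 CPM. COL1A1 reached 3.27 CPM and ACTA2 2.74, so that TMPRSS2 was no higher than these.

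Cleavage of a pre-mRNA and addition of the poly(A) tail fix the 3′ end of an mRNA. The site is marked mainly by the hexamer AATAAA, or its commonest variant ATTAAA, a short way before the cut, and a site within an intron gives a shorter mRNA with another last exon and often a shortened protein. Intronic sites compete with splicing and with the progress of RNA polymerase II. CDK12 is a kinase of the polymerase's tail known for keeping intronic sites from being used, and SRPK1 phosphorylates the SR proteins, a family of splicing factors.

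The ends of the genes that the results turn on are shown first, because the hexamer can be read in them. Each run is 30 bases of hg38 near the end of the interval, written 5′ to 3′ on the gene's strand, with the AATAAA or ATTAAA nearest to the end in capitals. KMT5B, CKAP2 and SSH1 (total RNA) and RIOK2 (nascent RNA) are among the genes that the naming rule gave for a higher ratio with THZ531, FANCA, SRRM2 and RBBP6 come from lists of genes with related functions and have an upstream-most end that rose, and CTSC is a gene whose upstream-most share fell with Endovion.
KMT5B upstream-most (chr11:68165721-68165750, minus strand): gttgattctcatAATAAAtgcagcataacg
KMT5B downstream-most (chr11:68154868-68154897, minus strand): gttaatcattttAATAAAttcggaaattaa
CKAP2 upstream-most (chr13:52465808-52465837, plus strand): aaagcaaaagggATTAAAttcgctttttaa
CKAP2 downstream-most (chr13:52476593-52476622, plus strand): atgccattttgaAATAAAatttaagctttg
SSH1 upstream-most (chr12:108791932-108791961, minus strand): tgtgtatgtaaaATTAAAacatataattta
SSH1 downstream-most (chr12:108778196-108778225, minus strand): acaggtgcaaacAATAAAtctccttttgca
RIOK2 upstream-most (chr5:97166752-97166781, minus strand): attaaaacatgcAATAAAtgtactttctat
RIOK2 downstream-most (chr5:97160871-97160900, minus strand): gtctccccattaAATAAActtttcctacaa
FANCA upstream-most (chr16:89798404-89798433, minus strand): tttaactgctcaATTAAAtgtgttgtaccg
SRRM2 upstream-most (chr16:2760807-2760836, plus strand): ttctcttttttcATTAAAtgctggtcatgt
SRRM2 downstream-most (chr16:2771378-2771407, plus strand): ctttttctgtcaAATAAAaatgagaaatgc
RBBP6 upstream-most (chr16:24549368-24549397, plus strand): tttgtttcttgcAATAAAaaatgtttggag
RBBP6 downstream-most (chr16:24572824-24572853, plus strand): ctttttgattacAATAAAagttttcagtaa
CTSC upstream-most (chr11:88320816-88320845, minus strand): aaatacttgtaaAATAAAgaatgttatgta
CTSC downstream-most (chr11:88293598-88293627, minus strand): tcatatttttaaAATAAAgttttaaaaata
In this set the upstream-most ends of CKAP2, SSH1, FANCA and SRRM2 held ATTAAA and no AATAAA in their last 50 bases, and each downstream-most end shown held AATAAA. Only ends that hold AATAAA or ATTAAA are shown, and the downstream-most end of FANCA is not among them. The upstream-most ends of DIDO1, WDR33 and CSTF3 held neither hexamer in that window, which says only that these letters are not there.

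Of the 1227 members, 1053 had 2 qualifying ends, 129 had 3 and 45 had 4 or more, up to 11. The upstream-most interval was the last 3′ UTR interval of an annotated transcript in 1055 members and an inner exon of a spliced 3′ UTR in the other 172. The upstream-most end lay within an intron of the gene's canonical transcript (GENCODE v44) in 815 members, in its last exon in 183, in an inner exon in 182 and outside it in 47. The upstream-most and downstream-most ends were 13142 bases apart at the median, with quartiles of 4525 and 38071 bases. In their last 50 bases, searched on the gene's strand, 46.7% of 1114 upstream-most intervals of that length or longer held AATAAA and 11.8% held ATTAAA without AATAAA. For the 1216 downstream-most intervals these shares were 62.6% and 14.5%, and for all 14024 intervals with 200 or more reads they were 60.9% and 14.3%. The genome just after the end was rich in A, where the oligo-dT primer of 3′ end libraries can bind inside an RNA, for 8.98% of the upstream-most, 3.04% of the downstream-most and 3.42% of all these intervals. In 97 members an interval overlapped that of another gene, and the reads of both cannot be told apart.

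In control cells the upstream-most end was usually the lesser one. It took 11.5% of a gene's reads at the median, under 10% in 569 members and over 50% in 254. The median over members was 11.1% and 11.4% in the control libraries, 11.03% and 10.99% with SRPIN340, and 10.3% and 10.6% with Endovion. With THZ531 it was 19.6% and 21.0%, and with THZ531 and Endovion together 16.7% and 16.9%. Both THZ531 libraries and both libraries of the combination thus had medians above those of the 6 other libraries, and members over 50% numbered 344 with THZ531. These medians describe the members as chosen, and because reads were summed over all 10 libraries an end used mostly after treatment could enter through the treated libraries.

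**Figure D1:**
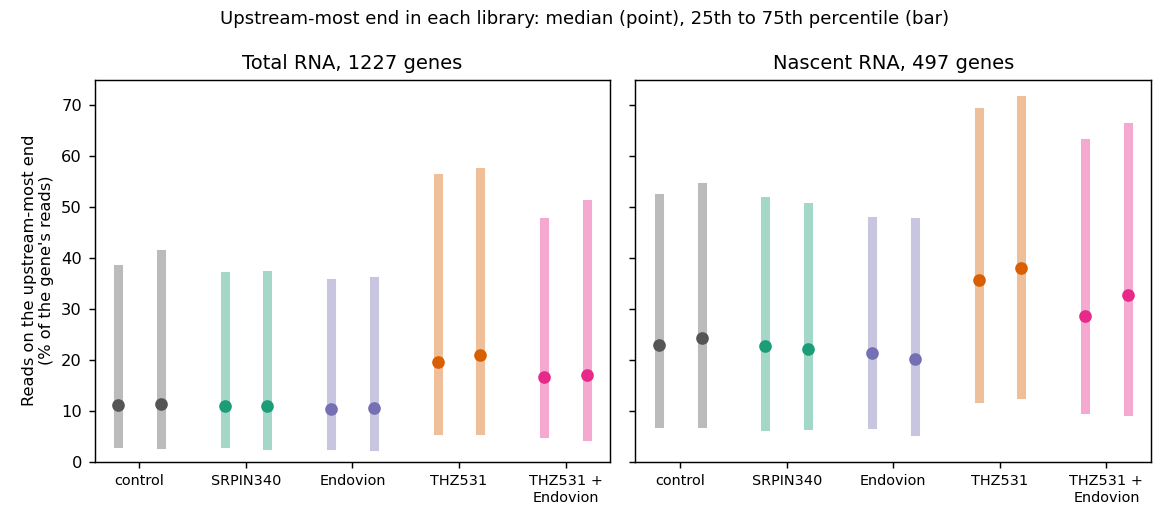
Percent of a gene's reads on its upstream-most end in each of the 10 libraries (y axis), for total RNA over 1227 genes (left) and nascent RNA over 497 genes (right). Points are medians over genes and bars run from the 25th to the 75th percentile. The THZ531 libraries have total medians of 19.6% and 21.0%, against 11.1% and 11.4% in control cells.

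The CDK12 inhibitor shifted reads toward the upstream-most end in many members. The ratio of upstream-most to other reads was compared with edgeR's quasi-likelihood test, with the library as a block, and adjusted by Benjamini-Hochberg over 2176 genes of any type with 2 or more ends of 50 or more reads. With THZ531 the ratio was higher in 412 members and lower in 26 at an adjusted p under 0.05 (n = 2 libraries per group), which is 33.6% and 2.12% of them. Over all genes tested 25.6% were higher and 1.7% lower. All genes tested include the members, here and in the shares below. The median log2 change of the ratio was 0.76 over the members and 0.72 over all genes tested, close to each other. Of the 1062 members in which both sides reached 40 reads in the control libraries alone, a limit chosen after the data were seen, 310 were higher and 24 lower, with a median of 0.57. Without THZ531 replicate 2 the calls fell from 438 to 237.

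Among the genes named by rule, DIDO1, which encodes a chromatin reader of the nucleus and is known for several isoforms with different 3′ ends, had the smallest p in total RNA. Its upstream-most end (chr20:62904998-62905785, minus strand) lies in intron 6 of a canonical transcript of 16 exons, 27260 bases before the last end. It took 5.66% and 4.74% of the reads in control cells and 92.3% and 90.5% with THZ531. The combination gave 83.3% and 87.8%, Endovion 8.40% and 5.02%, and SRPIN340 7.39% and 4.90%. The log2 change of the ratio with THZ531 was 7.61 (standard error 0.41, edgeR adjusted p = 2.81e-06). Both THZ531 groups were far above the 6 other libraries, which overlapped each other. In counts, the DIDO1 upstream-most end went from 60 and 44 reads in control cells to 1748 and 1190 with THZ531, while the other ends went from 1001 and 884 reads to 145 and 125.

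KMT5B, a methyltransferase that acts on lysine 20 of histone H4, used both of its ends about equally in control cells. Its upstream-most end (chr11:68165715-68166973, minus strand), in intron 10 of 11 exons, held 52.5% and 52.2% of the reads in control cells and 95.1% and 96.5% with THZ531. It held 96.1% and 93.9% with the combination, 48.7% and 49.8% with Endovion, and 52.7% and 52.1% with SRPIN340. The log2 change with THZ531 was 4.38 (standard error 0.33, edgeR adjusted p = 3.22e-05). The libraries of THZ531 and of the combination overlapped, and both groups lay apart from the rest.

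CKAP2, a protein of the mitotic spindle, has its upstream-most end (chr13:52465475-52465843, plus strand) in intron 6 of 9 exons. That end rose from 8.63% and 5.93% of reads in control cells to 56.6% and 58.6% with THZ531, with 54.6% and 49.3% with the combination. Endovion gave 12.4% and 9.67% and SRPIN340 12.6% and 11.5%, which were above both control libraries but did not pass the test (edgeR adjusted p = 0.35 and 0.37). SSH1, the phosphatase slingshot that activates cofilin, has its upstream-most end (chr12:108791919-108792099, minus strand) in intron 14 of 15 exons. It rose from 6.34% and 7.67% in control cells to 63.8% and 64.3% with THZ531 and to 42.3% and 59.4% with the combination. With Endovion the SSH1 end held 3.80% and 3.88%, below both control libraries (edgeR adjusted p = 0.25), and with SRPIN340 5.78% and 5.64%. The log2 changes of the ratio with THZ531 were 4.12 for CKAP2 (standard error 0.33) and 4.57 for SSH1 (standard error 0.37), both at an edgeR adjusted p of 3.22e-05.

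The shift came from both sides in unequal measure. The level of each interval was tested with edgeR over all 17457 non-overlapping intervals that passed the count filter, after TMM scaling. These are shares of a library, so that fewer cells and less RNA per cell cannot be told apart. With THZ531 the upstream-most interval rose in 455 members and fell in 72, where 15.4% of all intervals rose and 14.6% fell. The downstream-most interval rose in 158 members and fell in 304. The median log2 change of level was 0.54 for the upstream-most and -0.14 for the downstream-most intervals, against -0.03 over all intervals tested. Without THZ531 replicate 2 the upstream-most calls fell from 527 to 327. Among the 412 members with a higher ratio, the upstream-most end rose in 344, the downstream-most fell in 187 and both held in 125. DIDO1 was of this last kind, with log2 changes of level of 4.96 for the upstream-most end (standard error 0.23, edgeR adjusted p = 3.76e-10) and -4.01 for the downstream-most. In KMT5B the loss was larger than the gain, at -3.09 and 1.27. In CKAP2 the upstream-most end rose by 4.28 on the log2 scale and the downstream-most end changed by 0.19, which did not pass the test (edgeR adjusted p = 0.41). SRRM2, which encodes a large scaffold protein of the spliceosome, had a rise of 4.97 at its upstream-most end and 0.06 at its downstream-most (edgeR adjusted p = 0.75). Its upstream-most end went from 0.20% and 0.08% of reads to 4.00% and 4.25%, so that the main end still held nearly all reads. This upstream-most end of SRRM2 had under 40 reads in the control libraries, so it could qualify through the treated libraries where it was high.

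**Figure D2:**
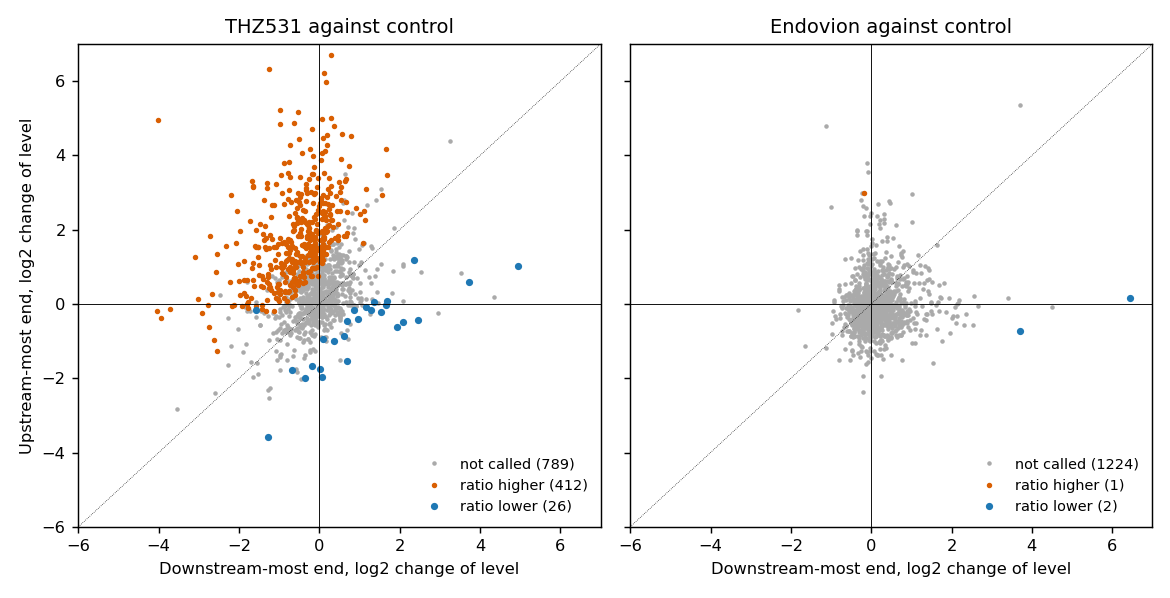
Log2 change of level against control of the downstream-most end (x axis) and the upstream-most end (y axis) in total RNA, 1 point per gene, for THZ531 (left) and Endovion (right). Orange points are genes whose upstream-to-other ratio was called higher, blue points those called lower, and the dotted line marks equal change. With THZ531 412 genes are orange and 26 blue, and with Endovion 1 and 2.

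Genes of the DNA damage response were among the members. Of 50 such genes listed, 12 were members, and with THZ531 the ratio was higher in 9 and lower in 0 of them, with a median log2 change of 1.71, beside 33.6% higher over the members and 25.6% over all genes tested. Of the 10 with 40 or more reads on each side in the control libraries, which leaves out ATM and FANCM, 7 were higher. The list was written with earlier results of these data known, and no test was made over it. FANCA, of the Fanconi anemia core complex, has its upstream-most end (chr16:89798385-89799107, minus strand) in intron 10 of 43 exons. It rose from 11.04% and 8.999% of reads in control cells to 53.5% and 55.6% with THZ531 (log2 change of the ratio 3.43, standard error 0.32, edgeR adjusted p = 4.52e-05), with 44.9% and 49.2% in the combination. The other groups lay near control, at 11.8% and 8.42% with Endovion and 12.5% and 13.7% with SRPIN340. ATM, the kinase that signals DNA breaks, ends early at an interval of intron 4 of 63 exons (chr11:108229332-108229362, plus strand). This end rose from 3.17% and 3.47% to 15.9% and 15.5% with THZ531 and was 8.56% and 10.4% with the combination. FANCM, a DNA translocase, rose from 2.96% and 7.14% to 41.1% and 35.3%, and its genome after the end is A-rich. The others that rose with THZ531 were CHEK1, FANCC, FANCD2, FANCI, RAD51C and RAD54B, of which the upstream-most interval of RAD54B overlaps an interval of FSBP, so that their reads cannot be told apart. CHEK1, the checkpoint kinase, differed from FANCA in that its upstream-most end lies in the last exon of the canonical transcript and was the main end already, at 73.8% and 65.4% in control cells and 85.8% and 90.5% with THZ531. RAD51C, a factor of homologous recombination, likewise went from 85.2% and 79.5% to 92.4% and 90.7% at an end in intron 2. BARD1, the partner of BRCA1, held 33.5% and 34.1% in control cells and 32.2% and 32.5% with THZ531 (edgeR adjusted p = 0.83). BRIP1 and ERCC6 were not called either. With the combination 7 of the 12 were higher, beside 20.5% of the members and 15.4% of all genes tested, and with Endovion and with SRPIN340 0 were.

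The 3′ end machinery itself was among the members. Of 31 listed genes of cleavage, polyadenylation and termination, 9 were members, and the ratio was higher with THZ531 in 5 and lower in 0, beside 33.6% higher over the members and 25.6% over all genes tested. Of the 6 with 40 or more reads on each side in the control libraries, which leaves out WDR33, 4 were higher. WDR33, the subunit that binds the AATAAA hexamer in RNA, rose at an end in intron 7 of 22 exons from 1.98% and 3.98% of reads in control cells to 37.5% and 38.0% with THZ531. RBBP6, a cleavage factor subunit known for a short isoform made by intronic polyadenylation, rose at an end in intron 3 of 18 exons (chr16:24549036-24549401, plus strand) from 46.5% and 50.4% to 95.1% and 91.0%. The combination left RBBP6 at 77.1% and 79.4%, Endovion at 18.9% and 24.2% and SRPIN340 at 41.1% and 30.1%. The libraries of these groups did not overlap the control libraries, but with Endovion alone and with SRPIN340 the change did not pass the test (log2 changes -1.78 and -0.78, edgeR adjusted p = 0.083 and 0.54). SSU72, a phosphatase of the polymerase's tail, rose from 7.27% and 7.81% to 36.0% and 34.6%. CSTF3, a cleavage stimulation subunit known for a short form ending in intron 3, had that end (chr11:33141465-33141878, minus strand) at 76.0% and 85.7% in control cells and 94.0% and 95.2% with THZ531. It held 84.0% and 87.8% with the combination, 54.0% and 56.6% with Endovion and 70.0% and 65.6% with SRPIN340. Endovion and SRPIN340 libraries of CSTF3 all lay below both control libraries and did not pass the test (edgeR adjusted p = 0.073 and 0.32). PAPOLA, a poly(A) polymerase, rose from 0.77% and 0.68% to 1.41% and 2.23%. CPSF6, INTS11, PABPC1 and RPRD2 were not called.

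**Figure D3:**
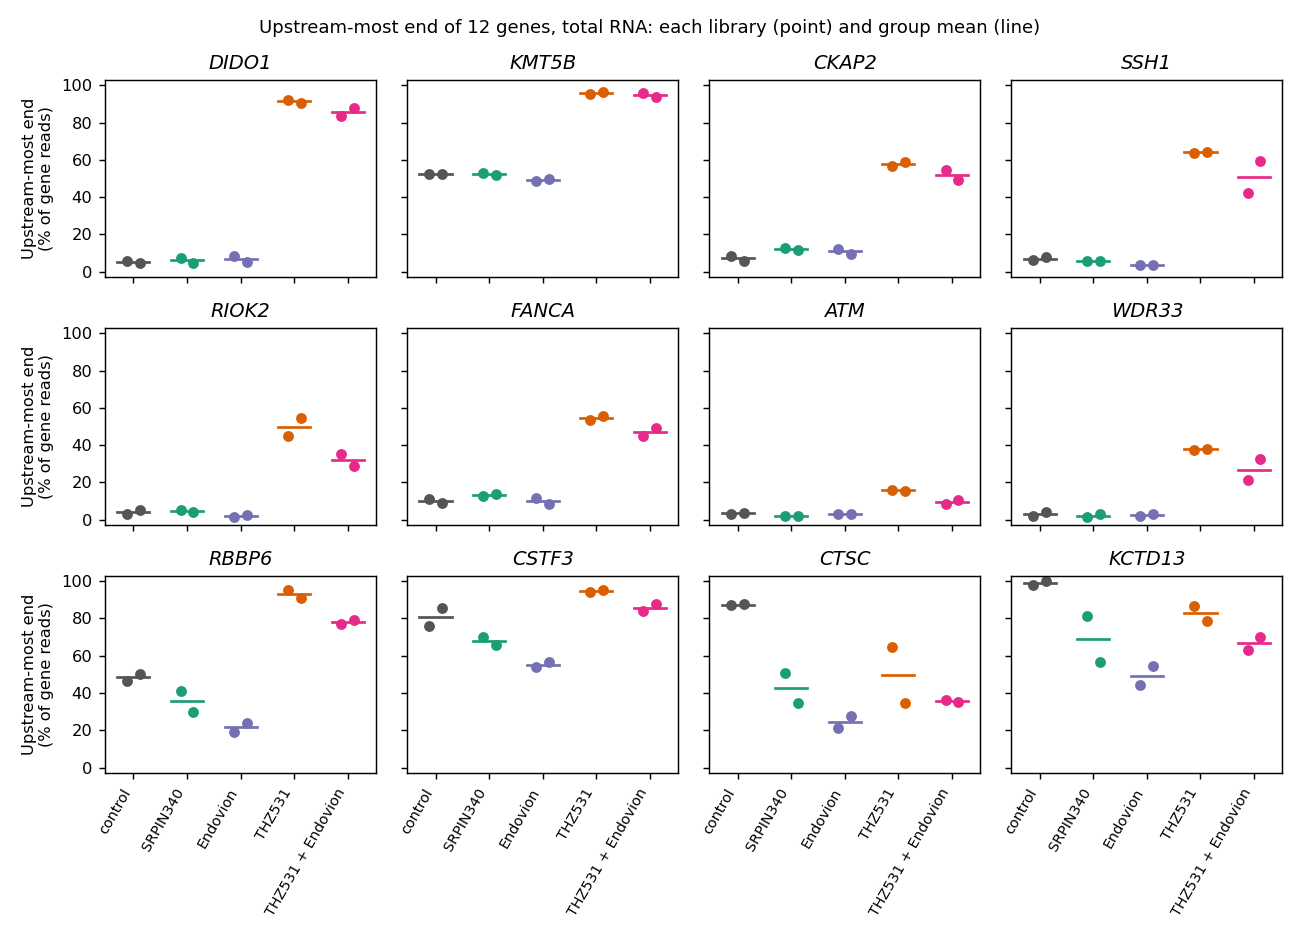
Percent of reads on the upstream-most end (y axis) of 12 genes in total RNA, with a point for each library and a line at the mean of the 2 libraries of each group (x axis). DIDO1, KMT5B, CKAP2, SSH1, RIOK2, FANCA, ATM, WDR33 and RBBP6 lie higher in both THZ531 groups than in control cells, and CTSC and KCTD13 lie lower in all 4 treated groups. KMT5B reads 52.5% and 52.2% in control cells and 95.1% and 96.5% with THZ531.

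Of 28 SR proteins and splicing kinases, 5 were members, and SRRM2 and CLK4 were higher with THZ531. Both had under 40 reads on the upstream-most end in the control libraries. Beside this and the lists that follow, 33.6% of the members and 25.6% of all genes tested were higher with THZ531. CLK4, a kinase of SR proteins, went from 9.64% and 10.2% to 26.8% and 27.9%. SON, a splicing factor of nuclear speckles, had 9.64% and 11.5% in control cells, 15.6% and 18.9% with THZ531 (edgeR adjusted p = 0.074) and 23.6% and 17.96% with the combination, which passed (adjusted p = 0.030). Of 24 genes known for an alternative last exon or an intronic poly(A) site, 11 were members, and ASCC3, CSTF3, ERBB2 and RBBP6 were higher with THZ531. That is 36.4% of the 11, near the share over the members. All of these but ERBB2 had 40 or more reads on each side in the control libraries. ASCC3, a helicase known for a short transcript made after ultraviolet light, rose at an end in intron 3 of 42 exons from 53.3% and 59.5% to 79.2% and 84.1%. ERBB2, the receptor tyrosine kinase HER2, had 4 and 2 reads on its upstream-most end in control cells and 58 and 62 with THZ531, or 6.12% and 9.45% of its reads. LMNA, which makes lamin C through an end in intron 10, held 41.1% and 46.0% in control cells and 34.8% and 36.7% with THZ531 (edgeR adjusted p = 0.20). Of 25 elongation kinases and partners, 2 were members: SUPT16H, a subunit of the histone chaperone FACT, was higher with THZ531, from 0.48% and 0.22% (16 and 5 reads) to 1.24% and 1.45%, and CCNL2 was not called.

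Of 19 genes on a list of prostate genes 4 were members, and 0 of these were called with THZ531, beside 33.6% higher over the members and 25.6% over all genes tested. ACP3, prostatic acid phosphatase, had 68.7% and 76.0% on its upstream-most end in control cells and 50.0% and 45.8% with Endovion (edgeR adjusted p = 0.15). FKBP5, a chaperone induced by androgen, was lower with the combination, at 1.85% and 2.38% against 4.19% and 6.35% in control cells (edgeR adjusted p = 0.019). The genome after this FKBP5 end is A-rich.

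Where the upstream-most end lay went with the size of the change. With THZ531 the ratio was higher in 338 of the 815 members with an intronic end (41.5%), in 42 of 183 with an end in the last exon (23.0%), and in 20 of 182 with an end in an inner exon (10.99%), with median log2 changes of 1.03, 0.39 and 0.04. By distance between the ends, the median was 0.01 for 69 members under 1 kb, 0.15 for 255 members of 1 to 5 kb, 0.75 for 414 of 5 to 20 kb, 1.27 for 258 of 20 to 50 kb and 1.09 for 231 over 50 kb. Members with AATAAA at the upstream-most end had a median of 1.13 (527 members), those with ATTAAA alone 1.20 (134 members) and those with neither 0.19 (566 members, of which 113 have an interval shorter than the window). The 106 members with A-rich genome after the end had a median of 0.14 and the other 1121 a median of 0.80. For the 97 members that overlap another gene it was 0.16, and for the 1130 others 0.80. These classes overlap each other, and differences between them were described and not tested. The classes hold all members, including ends that could enter through the treated libraries. Over the 1062 members with 40 or more reads on each side in the control libraries the median was 0.57. Whether the classes differ among those members was not tested.

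**Figure D4:**
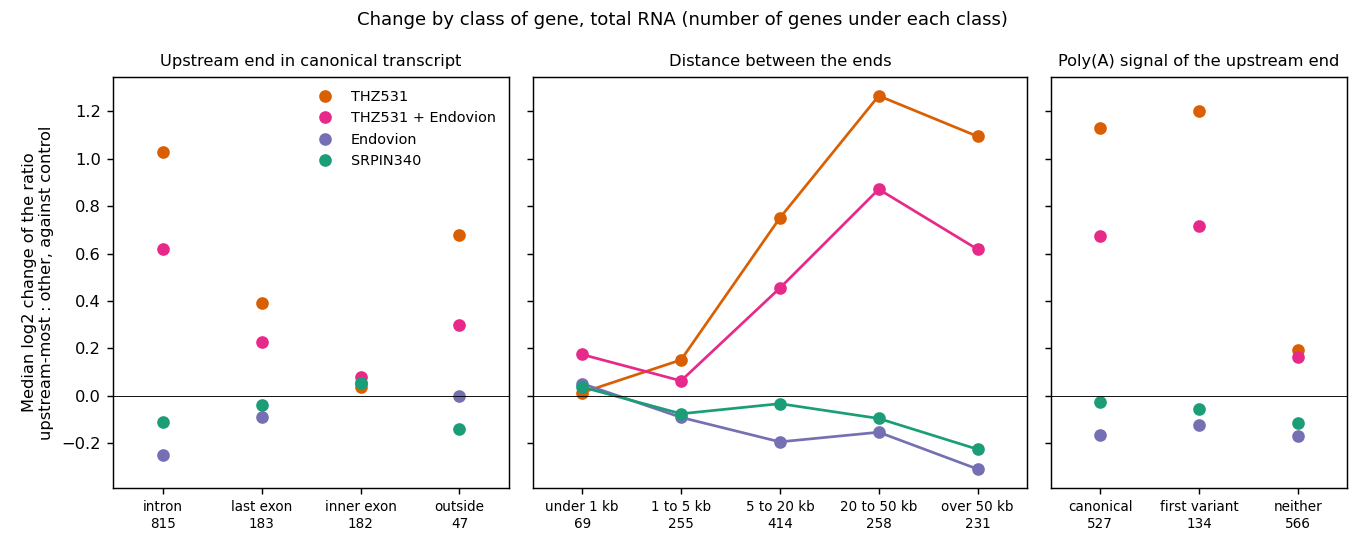
Median log2 change of the ratio of upstream-most to other reads against control (y axis) by where the upstream-most end lies in the canonical transcript (left), by the distance between the ends (middle) and by the poly(A) hexamer of the upstream-most end (right; canonical is AATAAA, first variant is ATTAAA without AATAAA). Colors are treatments, and the number of genes is under each class. For THZ531 the median is 1.03 for intronic ends and 0.04 for inner exons.

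In the 26 members with a lower ratio the downstream-most end rose in 16 and the upstream-most end fell in 11, and in 8 the upstream-most interval was an inner exon of a spliced 3′ UTR. TMEM106C, a membrane protein gene, had a lower share on its intronic end (chr12:47966734-47967065, plus strand), at 2.55% and 2.53% of reads in control cells and 0.80% and 0.48% with THZ531. The combination gave 0.60% and 0.59%, Endovion 1.97% and 1.70% and SRPIN340 2.65% and 1.499%. The log2 change with THZ531 was -2.03 (standard error 0.38, edgeR adjusted p = 0.0027). In nascent RNA it did not go the same way, with 3 of 203 and 12 of 143 T>C reads in TMEM106C in control cells and 16 of 199 and 7 of 144 with THZ531 (edgeR adjusted p = 0.72). DTD1, a deacylase of mischarged tRNAs, went from 11.1% and 11.4% to 3.80% and 1.32% at an inner exon interval with 335 reads over the 10 libraries. It held 1.88% and 2.78% with Endovion and 3.88% and 2.28% with SRPIN340, so that all 8 treated libraries lay below control. For DTD1 the direction depended on which ends were admitted: with annotated ends only the log2 change was 0.59 and with a limit of 400 reads 0.74. Without THZ531 replicate 2 the call was lost (log2 change -1.68, edgeR adjusted p = 0.0504). ENSG00000285641 fell from 98.0% and 98.0% to 91.8% and 78.1%. Its upstream-most interval overlaps an interval of RAB13, and the reads of both genes cannot be told apart.

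Adding Endovion to THZ531 gave the same direction with fewer calls. With the combination the ratio was higher in 252 members (20.5%) and lower in 31 (2.53%), where 15.4% and 2.53% of all genes tested were. The median log2 change was 0.48 over the members and 0.43 over all genes tested. The calls were 142 without control replicate 2, and 117 and 162 without either replicate of the combination, against 283 with all. By the naming rule the members with the smallest p were again DIDO1, KMT5B, CKAP2 and SSH1, with log2 changes of 6.76, 4.14, 3.79 and 3.79. The lower ones were ENSG00000285641, CTSC, TMEM106C and ENSG00000266086, a gene whose upstream-most interval and 1 other overlap intervals of SRSF1, so that their reads cannot be told apart. For ENSG00000266086 the log2 change was -3.04 against all other ends, and 0.52 against the downstream-most end alone. The upstream-most interval rose in level in 358 members and fell in 69, with 14.9% and 12.9% over all intervals, and the 427 calls were 284 without replicate 1 of the combination. The downstream-most interval rose in 190 and fell in 204.

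Tested against THZ531 alone, 0 members differed with the combination at an adjusted p under 0.05 by edgeR, as did 0% of all genes, while 181 members had an unadjusted p under 0.05 (162 lower and 19 higher), against 12.9% of all genes tested. DESeq2 called 20 members, against 0.919% of all genes tested. The median log2 difference was -0.29, with quartiles of -0.68 and 0.08. RBBP6 had a difference of -1.95 (edgeR adjusted p = 0.15), CSTF3 -1.52 (adjusted p = 0.15) and RIOK2 -1.06 (adjusted p = 0.26). The interaction of THZ531 and Endovion was called in 0 members by edgeR, in 0% of all genes, and by DESeq2 in 0. It had an unadjusted p under 0.05 in 110 members, against 9.28% of all genes, with a median of -0.12.

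Fewer members were called with the SRPK1 inhibitors than with THZ531, and THZ531 was not tested against SRPIN340 directly. With Endovion the ratio was called in 3 members, against 0.138% of all genes tested. DESeq2 called 72 members, against 4.09% of all genes tested. With 100 reads required on each side edgeR called 44, without either THZ531 replicate 17 and without control replicate 1 it called 6. For the settings with 100 reads or without a library no share over all genes tested is given. At an unadjusted p under 0.05 there were 224 members, 143 lower and 81 higher, against 16.3% of all genes tested. The median log2 change with Endovion was -0.16 with quartiles of -0.57 and 0.29. CTSC, the lysosomal protease cathepsin C, has its upstream-most end (chr11:88320811-88326432, minus strand) in intron 2 of 7 exons. That end held 87.0% and 87.5% of reads in control cells and 21.3% and 27.8% with Endovion (log2 change -4.41, standard error 0.59, edgeR adjusted p = 0.029). It held 51.0% and 34.5% with SRPIN340, 64.7% and 34.8% with THZ531, and 36.2% and 35.1% with the combination. Every treated library of CTSC was thus below both control libraries, and the 4 comparisons share those 2 libraries. KCTD13, an adaptor of a ubiquitin ligase, had 2 and 0 reads on its downstream-most end in control cells, against 100 and 64 on the upstream-most (chr16:29919635-29922973, minus strand), so it qualified as a member through the treated libraries. Among the 1062 members with 40 or more reads on each side in the control libraries, which leaves KCTD13 out, Endovion had 1 higher and 1 lower call. The upstream-most end was 98.0% and 100% in control cells, 44.2% and 54.3% with Endovion, 81.1% and 56.8% with SRPIN340, 86.6% and 78.9% with THZ531 and 63.0% and 70.3% with the combination. UMAD1 was higher, from 73.2% and 61.9% in control cells to 95.4% and 95.5% with Endovion and to 91.0% to 97.4% in the other treated libraries. Its direction turned with the limit on reads, to -4.03 at a limit of 100 and at 400 reads, and the cause was not tested. With THZ531 the ratio of UMAD1 was higher too (edgeR adjusted p = 0.000802). The 3 Endovion calls were lost without control replicate 2, without either Endovion replicate and without either replicate of the combination. Those of KCTD13 and UMAD1 were lost also without control replicate 1, and that of UMAD1 without either SRPIN340 replicate.

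The level of the upstream-most interval rose with Endovion in 54 members and fell in 44, where 6.84% and 2.69% of all intervals were. The downstream-most interval rose in 115 and fell in 23. These counts rest on single libraries: without control replicate 1 the 98 calls of upstream-most intervals were 149, and without control replicate 2 or Endovion replicate 1 they were 16, and 22 without Endovion replicate 2. THZ531 set against Endovion directly gave 422 members higher and 11 lower with THZ531, where 26.4% and 0.781% of all genes were, and the 433 calls were 286 without Endovion replicate 1 and 288 without THZ531 replicate 2.

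With SRPIN340 edgeR called the ratio in 0 members and in 0% of all genes. At an unadjusted p under 0.05 there were 158 members, 88 lower and 70 higher, against 11.6% of all genes tested, and DESeq2 called 6 members, against 0.322% of all genes tested. The median log2 change was -0.08 with quartiles of -0.41 and 0.32. The upstream-most interval rose in level in 2 members and fell in 0, where 1.17% of all intervals changed, and the downstream-most interval rose in 18. Without control replicate 1 the 2 calls were 89. Without THZ531 replicates 1 and 2 in turn they were 24 and 26, without replicates 1 and 2 of the combination 7 and 1, without SRPIN340 replicate 1 they were 5, and without control replicate 2 or SRPIN340 replicate 2 they were 0. Endovion at 50 μM and SRPIN340 at 20 μM were compared in the same fit, although the doses differ. Of the members 0 were called, as were 0% of all genes, and 39 had an unadjusted p under 0.05, against 3.68% of all genes. DESeq2 called 0 members there. The median log2 difference was -0.08, with quartiles of -0.37 and 0.19.

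**Figure D5:**
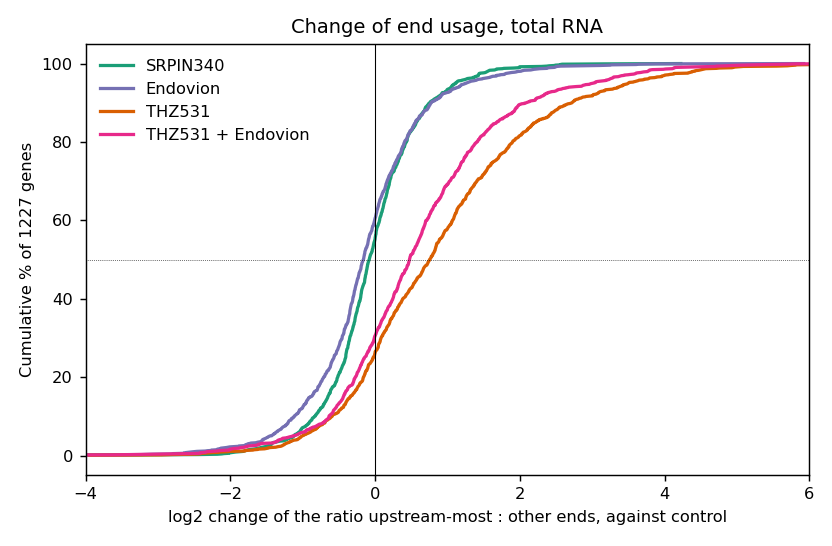
Cumulative percent of the 1227 genes (y axis) by their log2 change of the ratio of upstream-most to other reads against control (x axis, shown from -4 to 6), in total RNA, 1 line per treatment. The lines cross 50% at -0.08 for SRPIN340, -0.16 for Endovion, 0.48 for THZ531 with Endovion and 0.76 for THZ531.

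In nascent RNA 497 members had 50 or more T>C reads on each side over the 10 libraries, and 730 did not. In control cells the upstream-most end of these 497 held 23.0% and 24.2% of the T>C reads at the median, and 19.9% and 19.6% of all reads. The nascent percent was above the total percent in both control libraries in 202 members and below in 150. With THZ531 the nascent medians were 35.6% and 38.1%, and with the combination 28.6% and 32.8%. Endovion gave 21.4% and 20.1% and SRPIN340 22.6% and 22.1%. Both libraries of each group with THZ531 were thus above the 6 others. In THZ531 replicate 2 and in replicate 2 of the combination, 496 and 495 of the members had T>C reads.

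The test on T>C reads called 59 of the 497 members higher with THZ531 and 3 lower, with a median log2 change of 0.75. Of the 524 genes tested 11.8% were higher and 0.573% lower. The 497 members are among these 524 genes, so that these shares are nearly their own. Because the filter sums T>C reads over all 10 libraries, an end could pass it through the treated libraries, and 26 of the 59 had under 10 T>C reads on the upstream-most end in the control libraries together. The combination gave 14 higher and 1 lower, where 3.05% and 0.382% of all genes tested were, with a median of 0.46. Of the 59 higher members 58 were higher in total RNA too, though T>C reads are a part of all reads. Without single libraries the THZ531 calls were 28 (control replicate 1), 37 (control replicate 2), 12 (THZ531 replicate 1) and 14 (THZ531 replicate 2) of 62. The combination's 15 calls were 5 without either control replicate, and 3 and 1 without its own replicates 1 and 2. Endovion gave 0 calls by edgeR (0.191% of all genes, unadjusted p under 0.05 in 34 members against 7.44%) and 0 by DESeq2 (0.191% of all genes). SRPIN340 also gave 0 (0% of all genes, unadjusted p under 0.05 in 36 members against 7.82%) and 0 by DESeq2.

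RIOK2, a kinase of ribosome assembly, has its upstream-most end (chr5:97166746-97167438, minus strand) in intron 8 of 10 exons. It had 0 of 120 and 0 of 117 T>C reads there in control cells and 18 of 49 and 27 of 49 with THZ531. Over the group, 3 counts in 237 T>C reads allow a control share of up to 1.27%. The observed 45.9% with THZ531 was 36.3 times this limit. Counting error is covered on the control side only. Of the T>C reads on this end 45 came from the THZ531 and 21 from the combination libraries, with 3 from Endovion and 6 from SRPIN340, so that RIOK2 passed the filter of 50 through the groups where it was high and its test is no support. In total RNA the same RIOK2 end went from 3.20% and 5% to 44.9% and 54.4% with THZ531. SSH1 had 0 of 308 and 0 of 277 T>C reads on its upstream-most end in control cells, 12 of 88 and 11 of 49 with THZ531 and 12 of 94 and 16 of 61 with the combination. Its observed share was 32.7 times a floor of 3 counts over the control group with THZ531, and 35.2 times that floor with the combination. SSH1 too passed the filter through these groups, with 23 and 28 T>C reads on the end, against 1 with Endovion and 10 with SRPIN340. For DIDO1 the nascent counts were 7 of 31 and 0 of 29 in control cells and 56 of 61 and 43 of 43 with THZ531. KMT5B had 44 of 90 and 51 of 97 in control cells and 84 of 87 and 53 of 62 with THZ531. CKAP2 had 8 of 94 and 0 of 82 against 53 of 115 and 65 of 109 with the combination. On the upstream-most end the Endovion libraries had 2 and 2 T>C reads for DIDO1 and 8 and 9 for CKAP2. The SRPIN340 libraries had 4 and 2 for DIDO1 and 7 and 6 for CKAP2. Both DIDO1 and CKAP2 thus also passed the filter of 50 through the groups where they were high, and their nascent tests are no support.

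The nascent calls of a lower ratio that the naming rule gave were LRP11 and DCTN6 with THZ531 and ENSG00000266086 with the combination. LRP11, a gene whose other end overlaps ENSG00000285991, had 6 of 220 and 13 of 130 T>C reads on its upstream-most end in control cells. With THZ531 it had 0 of 163 and 0 of 151 (edgeR adjusted p = 0.024). On this LRP11 end the Endovion libraries had 10 and 5 T>C reads, the SRPIN340 libraries 5 and 9 and the combination 0 and 3. LRP11 thus passed the filter on T>C reads through the groups where it was high, and its test is no support. The observed control share of LRP11 was 5.68 times a floor of 3 counts over the THZ531 group. DCTN6, a dynactin subunit, had 10 of 46 and 13 of 42 in control cells and 2 of 82 and 1 of 62 with THZ531 (edgeR adjusted p = 0.016), and the genome after its upstream-most end is A-rich. DCTN6 passed the filter only with its control T>C reads counted, where it was high, and its test is no support either. Both calls were lost without control replicate 2 and without either THZ531 replicate. ENSG00000266086 had 26 of 46 and 14 of 23 in control cells and 2 of 48 and 8 of 48 with the combination. Its call (edgeR adjusted p = 0.043) was lost without any library of the control, THZ531, combination or Endovion groups.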

How the data were processed

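Total RNA 3′ end libraries of 22RV1 cells, labelled with 4-thiouridine, were read in 10 samples. The deposited values are whole-number counts made by the authors with SLAM-DUNK against hg38, for each 3′ UTR interval of a transcript: all reads, and reads with T>C conversions. The submitters' processing notes also name Bowtie2 2.3.4.1, SAMtools 1.6 and DESeq2 1.38.2, and whether molecular identifiers were collapsed is not given in the sources used here. Counts cover 19315358 to 30047630 reads per library, and intervals and floors cover counting error only. Transcripts were matched to GENCODE v44. Of the intervals of a gene that overlap, the one with most reads was kept.

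The members, lists and tests were chosen with earlier results of these data known. The ratio test used edgeR 4.0.16 in R 4.3.3 (quasi-likelihood, 2 count columns per library, library as a block, position by treatment as the tested term, 50 reads on each side, 5 residual degrees of freedom, Benjamini-Hochberg over 2176 genes for total and 524 for nascent RNA). Levels used TMM factors and filterByExpr. DESeq2 1.42.0 was an alternative. The procedure was also run on counts simulated with its own fitted dispersions, and the outcome is not given here. Named genes are the 4 with the smallest p in each direction for total RNA and 2 for nascent RNA, among members past an adjusted p of 0.05 with treated libraries beyond both controls and 20 or more reads in each library, and called or few members of the gene lists. The A-rich class has 12 or more A in the 20 bases after the end, or 6 in a row. The combination of THZ531 with SRPIN340 is not analysed here. Some items are not reported here.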

Additional observations from a re-analysis of the deposited data

How the results depend on the processing

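Of the alternatives tried, 263 values of the main counts stayed within 1.5 times and 65 did not. Counts of 0 that stayed 0 are among the 263. Among named genes 512 values kept direction and call, 43 lost the call and 5 reversed: DTD1 with THZ531 to 0.59 (annotated ends only) and 0.74 (limit of 400 reads), ENSG00000266086 with the combination to 0.52 (downstream-most interval alone), and UMAD1 with Endovion to -4.03 at limits of 100 and 400 reads. The cause of the reversals was not tested.

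Leaving out 1 library at a time gave these ranges of calls in total RNA: 237 to 431 for THZ531, 117 to 271 for the combination, 0 to 17 for Endovion, 0 to 1 for SRPIN340 and 286 to 440 for THZ531 against Endovion. In nascent RNA they were 12 to 61, 1 to 17, 0 to 1 and 0 to 1. For levels of upstream-most intervals they were 327 to 524 for THZ531, 284 to 429 for the combination, 16 to 149 for Endovion and 0 to 89 for SRPIN340.

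By the study's threshold (unadjusted p under 0.05 and a log2 change of at least 1) the total calls were 181 for Endovion and 119 for SRPIN340. They were 28 for Endovion against SRPIN340, 119 for the combination against THZ531 and 104 for the interaction. The nascent calls were 121 for THZ531, 92 for the combination, 34 for Endovion and 36 for SRPIN340. Shares over all genes tested are not given for the settings of this section, so these counts are no result about the members. At an unadjusted p under 0.05 alone, 16.3% of all genes tested passed with Endovion and 11.6% with SRPIN340 in total RNA. With 100 reads on each side Endovion had 44 total and 5 nascent calls and the combination 23 nascent calls. With 20 reads THZ531 had 9 nascent calls and the combination 1. DESeq2 gave 72 for Endovion, 6 for SRPIN340, 20 for the combination against THZ531 and 51 levels for SRPIN340, which had 79 with no filter on low counts. Endovion had 5 total calls with annotated ends only and 5 without genes that overlap another. It had 1 nascent call with the downstream-most interval alone, 1 at a limit of 100 reads and 1 with merged intervals. With both sides at 40 or more reads in the control libraries, an alternative chosen after seeing the data, THZ531 had 334 calls.

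Replicate numbers did not pair the libraries (correlations of deviations from -0.18 to 0.21 in total RNA). With the replicate block THZ531 had 414 calls and Endovion 0. The block ended the calls of CTSC, KCTD13 and UMAD1 with Endovion (edgeR adjusted p = 0.052, 0.085 and 0.085) and that of ENSG00000266086 with the combination in nascent RNA (adjusted p = 0.067).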
